A study of Mus musculus with 47 samples.

Results

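The hypothalamus was set against the neocortex of adult female mice, as 2 groups of whole-tissue RNA-seq libraries. All 12 libraries of the hypothalamus gene table and all 11 of the neocortex gene table were taken, 23 of the 47 libraries of a study that also covered hippocampus and cerebellum. The mice were C57BL/6J females aged 90 to 92 days, and both groups spanned the 4 stages of the estrous cycle. Hypothalamus had 3 libraries in each of proestrus, estrus, metestrus and diestrus, and neocortex had 3 in each except estrus, where 2 were analysed. Each library held the RNA of 1 whole region, dissected from both sides of the brain, and both regions were prepared with the same NEBNext kit. Stage entered every fit as a covariate, so that a difference between the regions was taken within stages.

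The hypothalamus is a set of nuclei at the base of the forebrain that releases peptides into the blood and the pituitary portal system and governs feeding, thirst, temperature, sleep, reproduction and stress. Its neurons are mostly GABAergic or use the vesicular glutamate transporter VGLUT2, and many release a neuropeptide as a co-transmitter. The neocortex is a layered sheet dominated by spiny glutamatergic pyramidal neurons that use VGLUT1, with a minority of GABAergic interneurons. The defining markers of both labels were present in the libraries that carry them, as the peptide, transcription factor and transporter genes below show.

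Promoters of 4 of the peptide genes with the widest separation are printed here because each gene was read in all hypothalamus libraries and was at or near 0 counts in the neocortex. The sequences run 5′ to 3′ from 250 bases before to 50 bases after the annotated start, from RefSeq on GRCm38.p6. Capitals mark the motifs that were searched for on both strands. Oxt encodes oxytocin and lies at chr2:130575919-130576218 on the plus strand, and Avp encodes vasopressin and lies at chr2:130582539-130582838 on the minus strand. Pmch encodes the precursor of melanin-concentrating hormone (chr10:88090822-88091121, plus strand), and Hcrt encodes the orexin precursor (chr11:100762882-100763181, minus strand).
Oxt: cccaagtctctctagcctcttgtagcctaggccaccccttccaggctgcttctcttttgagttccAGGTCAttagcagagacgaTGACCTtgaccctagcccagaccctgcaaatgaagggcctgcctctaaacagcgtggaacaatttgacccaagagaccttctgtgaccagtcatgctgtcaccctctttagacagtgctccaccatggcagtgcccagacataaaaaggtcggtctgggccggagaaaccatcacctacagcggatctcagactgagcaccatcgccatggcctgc
Avp: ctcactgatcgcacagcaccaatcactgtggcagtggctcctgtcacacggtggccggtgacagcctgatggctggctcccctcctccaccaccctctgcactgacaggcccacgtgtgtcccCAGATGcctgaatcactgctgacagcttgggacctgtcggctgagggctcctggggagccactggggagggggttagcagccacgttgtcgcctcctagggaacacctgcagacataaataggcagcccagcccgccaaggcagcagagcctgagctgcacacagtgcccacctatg
Pmch: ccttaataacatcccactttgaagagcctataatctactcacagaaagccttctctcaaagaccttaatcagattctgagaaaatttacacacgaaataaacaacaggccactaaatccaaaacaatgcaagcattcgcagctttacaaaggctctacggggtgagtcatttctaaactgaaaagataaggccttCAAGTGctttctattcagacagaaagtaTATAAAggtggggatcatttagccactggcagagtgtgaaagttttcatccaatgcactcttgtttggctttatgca
Hcrt: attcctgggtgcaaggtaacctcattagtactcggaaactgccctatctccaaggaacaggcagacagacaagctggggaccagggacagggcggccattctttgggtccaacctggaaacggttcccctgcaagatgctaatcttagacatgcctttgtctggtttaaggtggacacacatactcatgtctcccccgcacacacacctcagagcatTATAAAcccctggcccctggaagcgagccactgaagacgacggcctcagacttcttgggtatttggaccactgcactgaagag
In the Oxt promoter the capitals are 2 copies of AGGTCA, a nuclear receptor recognition element, 1 on each strand, at 185 and 166 bases before the start (offsets -185 and -166). The Avp promoter held 1 E-box CAGATG at offset -127. The Pmch promoter held TATAAA at offset -27 and CAAGTG, an NKX2-1 recognition element, at offset -55, and the Hcrt promoter held TATAAA at offset -33. These motifs are common. TATAAA was found in 10.7% of the 1121 promoters of genes higher in the hypothalamus, 9.45% of the 1026 promoters of genes lower in it, and 7.08% of the 13960 promoters of all genes tested. The matching shares for AGGTCA were 13.7%, 11.6% and 12.3%, for CAGATG 15.5%, 13.8% and 11.8%, and for CAAGTG 14.3%, 11.6% and 11.4%.

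Of 15214 genes tested, 1345 were higher in the hypothalamus by more than 2-fold (8.84%) and 1006 were lower by more than 2-fold (6.61%). The test was edgeR's glmTreat against a 2-fold difference, with Benjamini-Hochberg adjusted p under 0.05 over all genes. With edgeR's quasi-likelihood test of any difference, 6075 genes were higher (39.9%) and 5671 lower (37.3%), which is 77.2% in either direction. For 2464 genes every hypothalamus library lay above every neocortex library (16.2%), and for 2752 every one lay below (18.1%). The median log2 difference over all genes was 0.02. A fitted fold of 10 or more was found for 226 of the higher genes and 118 of the lower ones, and a fold of 100 or more for 64 and 16. Region accounted for 76.5% of the variance of log2 levels, and stage, after region, for 3.3%. Since these are whole tissues, fewer cells of a type and less RNA per cell cannot be told apart.

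**Figure D1:**
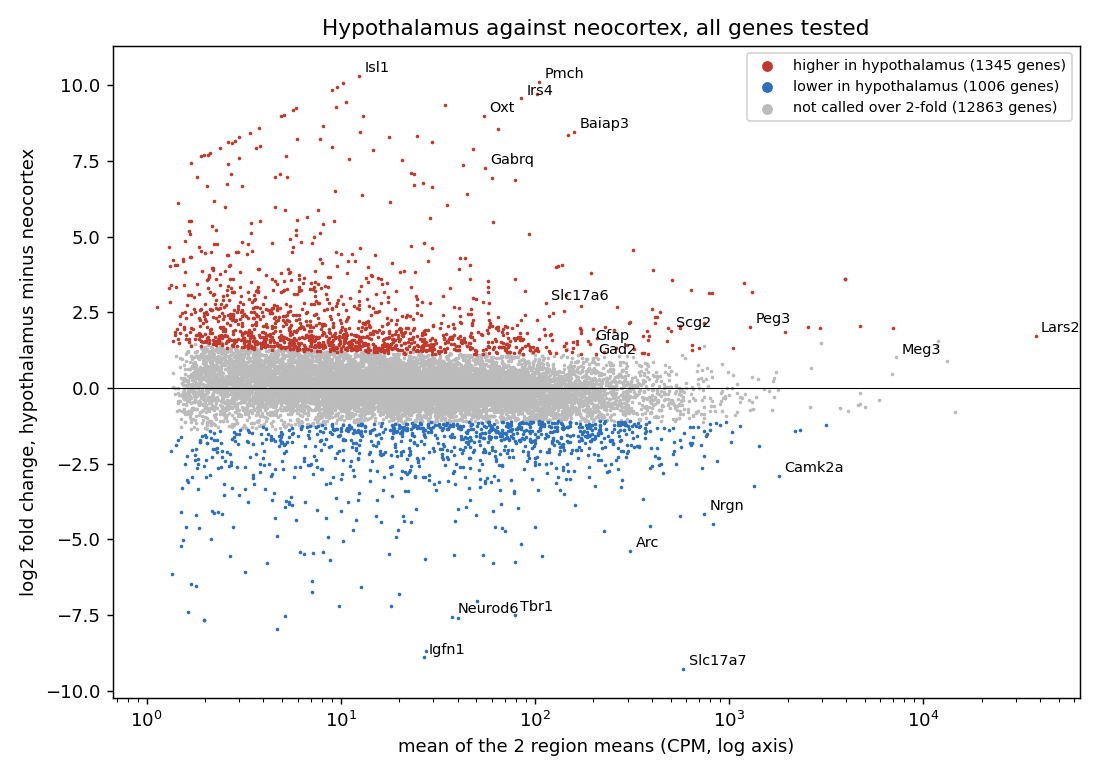
Log2 difference, hypothalamus minus neocortex (y axis), of each of the 15214 genes tested against the mean of its levels in the 2 regions in CPM (x axis, log scale); each point is a gene, coloured where it was called by more than 2-fold, with 20 genes named. The 1345 higher genes reach up to Isl1 and Pmch at log2 differences over 10, and the 1006 lower genes reach down to Slc17a7 at -9.26.

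Library size differed between the regions, and some libraries stood apart. Totals were 1826368 to 8264980 counts in the hypothalamus and 6311867 to 10535466 in the neocortex. Lars2, the mitochondrial leucyl-tRNA synthetase gene, took 5.28% ± 4.02 of counts in the hypothalamus and 1.54% ± 0.284 in the neocortex (SD, n = 12 and 11; 2-sided permutation test, p = 5e-04), with 4 hypothalamus libraries at 8.18% to 13.5%. Leaving out these 4 libraries, a check chosen after seeing the data, gave 1342 genes higher and 1103 lower of 15773 tested, and 1204 of the higher and 999 of the lower ones were also called in all 23 libraries. Composition was also less even among hypothalamus libraries. Identifiers unmatched to GENCODE took 1.94% to 14.8% of hypothalamus counts, beside a neocortex range of 1.63% to 2.49%. Small RNA took 0.541% to 8.07%, beside 0.451% to 0.744%. TMM scaling factors spanned 0.675 to 1.193, beside 0.98 to 1.011. The 4 Lars2-rich libraries had the largest of these shares and the lowest factors. The effect of composition on the calls was not tested separately. Mitochondrially encoded genes took 7.59% ± 1.74 of counts in the hypothalamus and 7.65% ± 0.674 in the neocortex (SD; permutation test, p = 0.924). By the test of any difference, the 13 protein-coding ones were lower, by log2 differences of -0.16 (mt-Nd5) to -0.80 (mt-Co1). The ribosomal RNA genes mt-Rnr1 and mt-Rnr2 were higher by that test, by 1.39 ± 0.40 and 1.54 ± 0.34, but did not pass the 2-fold test. Their hypothalamus libraries spread over 2601 to 45488 and 3968 to 47686 CPM. The neocortex libraries, at 4737 to 7595 and 4374 to 7437.5 CPM, lay within those ranges. The third estrus library of the hypothalamus had the largest sum of 26 listed striatal markers, at 1664 CPM (counts per 1000000 of the scaled library total), against 736 to 918 CPM in the other 11 hypothalamus libraries and 769 to 1064 CPM in the neocortex. Summed meningeal markers were at 254 CPM in the third metestrus and 674 CPM in the first estrus library of the hypothalamus and 1130 to 2830 CPM in its other 10, against 486 to 702 CPM in the neocortex. The third estrus library also held the highest hypothalamus level of Slc17a7, Tbr1, Kcnh3, Camk2a, Nrgn, Dlg4, Arc and Crh, and the third metestrus library the lowest of Col1a1 and Igf2, all given below. The part of these libraries in the results was not tested beyond leaving each out in turn.

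Genes for hypothalamic neuropeptides were widely separated. The list, like the lists of regional transcription factors that follow, was drawn up for genes known to mark a region, so its direction is not independent of that choice. Of 36 listed, 22 were tested, and 16 of those were higher in the hypothalamus by more than 2-fold, 3 were lower, and the median log2 difference was 4.46, beside 0.02 over all genes tested. Over all genes tested, 8.84% were higher and 6.61% lower by more than 2-fold. These shares stand beside every list count over 2-fold below. Of the 22, 1 had no count in the neocortex and passed the filter on low counts through the hypothalamus alone. The 16 include the magnocellular hormones oxytocin and vasopressin, the lateral hypothalamic peptides, and the arcuate peptides that control feeding.

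Avp had a lowest, median and highest level of 133, 202 and 277 CPM over the hypothalamus libraries, against 0, 0.133 and 0.952 CPM over the neocortex libraries. Its log2 difference was 9.70 ± 0.19 (SE; edgeR glmTreat, adjusted p = 2.6e-25). Oxt, the other neurohypophyseal hormone gene, had 61.3, 98.5 and 196 CPM in the hypothalamus and 0, 0.113 and 0.675 CPM in the neocortex, a log2 difference of 8.98 ± 0.24 (adjusted p = 7.83e-22). No library of 1 region reached the levels of the other for either gene. Pmch, whose peptide is made by lateral hypothalamic neurons that promote feeding and REM sleep, had 88.9, 197 and 301 CPM in the hypothalamus and 0, 0.113 and 0.482 CPM in the neocortex. Its log2 difference was 10.11 ± 0.23 (adjusted p = 1.63e-23). Parpbp overlaps 58.1% of its exon length, and the kit does not mark strand, so reads of the 2 genes cannot be told apart there. Hcrt, the orexin gene of wake-promoting neurons in the same area, had 3.53, 24.6 and 62.7 CPM in the hypothalamus and 0, 0 and 0.286 CPM in the neocortex, with a log2 difference of 8.45 ± 0.53 (adjusted p = 9.92e-13). Its level thus spread widely between hypothalamus libraries, yet the lowest of them still lay above the highest neocortex library.

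Among the feeding peptides of the arcuate nucleus, Pomc, the precursor of α-MSH, had 40.2, 48.9 and 114 CPM in the hypothalamus and 0.365, 0.868 and 3.38 CPM in the neocortex, a log2 difference of 5.61 ± 0.21 (adjusted p = 1.29e-17). Its highest value came from the third metestrus library, in which the pituitary hormone gene Prl was at 40.8 CPM. Prl was at 9.65 and 12.8 CPM in the other 2 metestrus libraries and at 0 in the other 9 hypothalamus libraries, and at 0 to 1.11 CPM in the neocortex. Agrp, the melanocortin antagonist gene, had 2.44, 4.77 and 8.46 CPM in the hypothalamus and 0, 0.122 and 0.572 CPM in the neocortex, a log2 difference of 4.38 ± 0.29 (adjusted p = 9.77e-12). Cartpt, encoding a satiety peptide, had a log2 difference of 4.68 ± 0.13 (adjusted p = 1.89e-20). Trh, the thyrotropin-releasing hormone gene, had 27.5, 58.8 and 78.4 CPM in the hypothalamus against 0, 0.564 and 1.10 CPM in the neocortex, 6.63 ± 0.21 on the log2 scale (adjusted p = 1.58e-19). Gal, the galanin gene, had 5.41, 9.59 and 14.8 CPM in the hypothalamus and no count in any neocortex library, which makes it at least 307-fold higher, taking 3 counts over the whole neocortex group as the floor. Nts, Npvf, Qrfp, Tac2, Tac1, Adcyap1 and Pdyn, which encode neurotensin, RFamide-related peptides, QRFP, neurokinin B, substance P, PACAP and dynorphin, were also higher, by 1.33 (Pdyn) to 6.67 (Npvf) on the log2 scale.

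**Figure D2:**
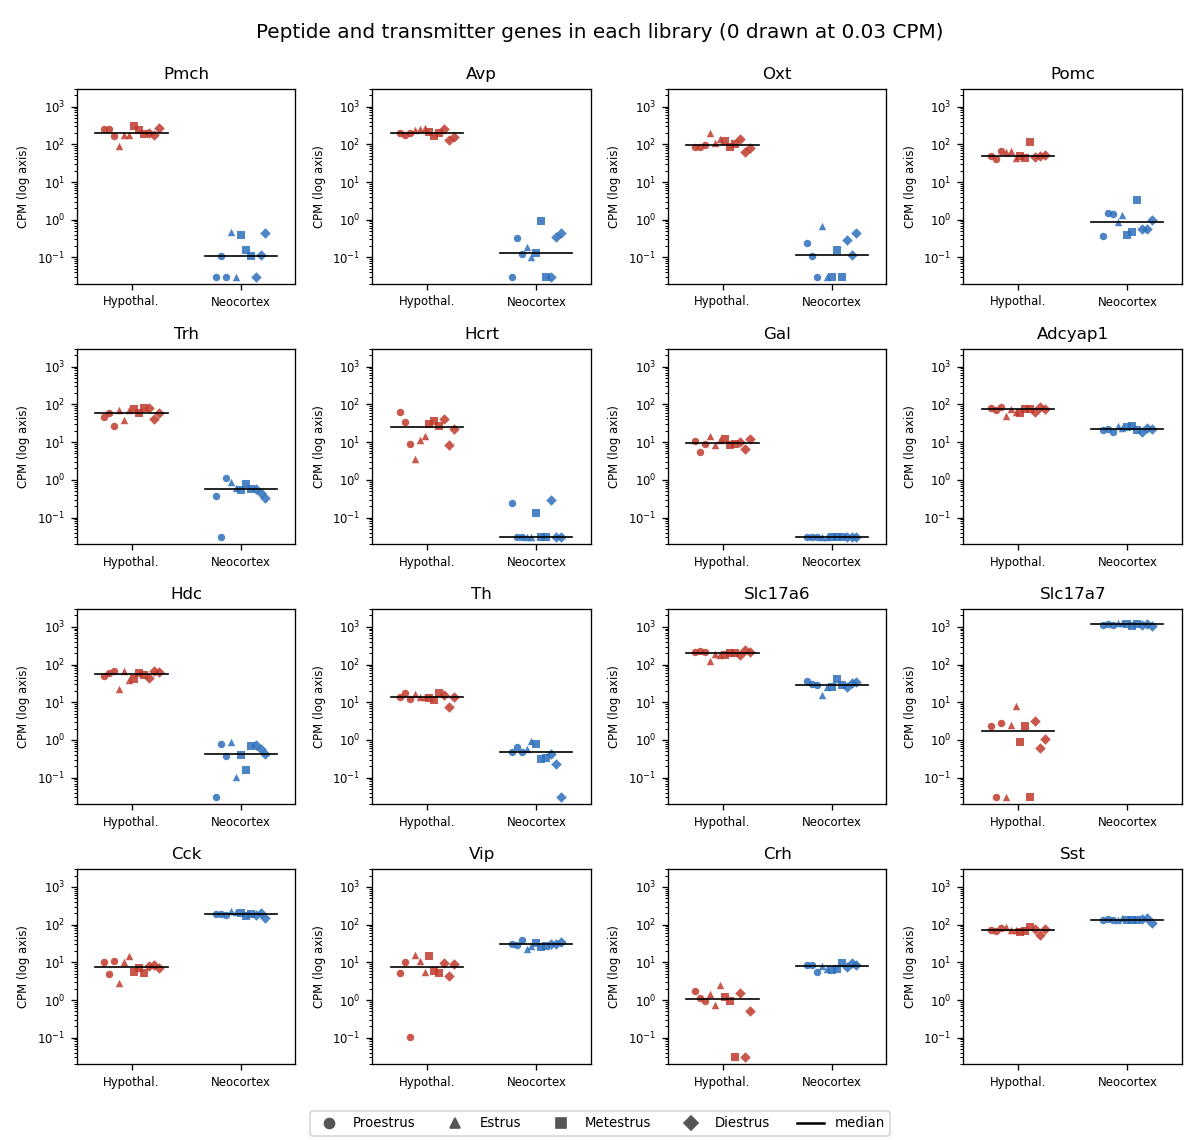
Level of 16 peptide and transmitter genes in CPM (log axis, 0 drawn at 0.03), with the 12 hypothalamus libraries left of the 11 neocortex libraries in each panel; each symbol is 1 library, shaped by stage, and the black line is the median. For Pmch, Avp, Oxt and Hcrt every neocortex library lies below every hypothalamus library, while for Slc17a7, Cck, Vip and Crh the order is turned round.

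Of the 3 peptide genes lower in the hypothalamus, Crh and Vip are known from cortical interneurons. Crh, corticotropin-releasing hormone, had 0, 1.05 and 2.44 CPM in the hypothalamus and 5.48, 8.01 and 9.65 CPM in the neocortex, a log2 difference of -2.90 ± 0.21 (adjusted p = 1.83e-09). Vip had 0.102, 7.58 and 15.5 CPM in the hypothalamus and 21.99, 31.03 and 38.03 CPM in the neocortex (-1.94 ± 0.23, adjusted p = 4.28e-04; this call was lost with DESeq2), and Grp had a log2 difference of -1.71 ± 0.18 (adjusted p = 6.24e-04). The libraries of the 2 regions did not overlap for Crh and Vip. Npy, Vgf and Penk did not pass the 2-fold test, with log2 differences of -1.11, -0.67 and 0.71. Penk was at 135 CPM in the third estrus library of the hypothalamus, the one with the highest striatal sum, against a median of 50.7 CPM there and of 32.4 CPM in the neocortex.

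Transcription factors that pattern the hypothalamus showed the same direction. Of 50 listed, 39 were tested, 29 were higher by more than 2-fold and 2 lower, with a median log2 difference of 4.82. Of the 39, 10 had no count in the neocortex. These passed the filter on low counts through the hypothalamus alone, which fixed their direction. Isl1, a LIM-homeodomain factor of arcuate neurons, had 20.1, 24.8 and 27.8 CPM in the hypothalamus and no counts in the neocortex, which makes it at least 774-fold higher. Sim1, needed for the paraventricular and supraoptic nuclei, had 11.9, 17.8 and 22.4 CPM against no counts (at least 558-fold higher), and Lhx1, of the suprachiasmatic nucleus, had 10.2, 19.7 and 24.8 CPM against no counts (at least 592-fold). Six6, Nkx2-4, Bsx and Rax were also without a count in the neocortex, at least 353-, 317-, 186- and 129-fold higher; the antisense gene Raxos1 overlaps 27.4% of the exon length of Rax. These genes had counts in all 12 hypothalamus libraries. Otp, a partner of Sim1 in neuroendocrine neurons, had 16.1, 19.97 and 30.2 CPM in the hypothalamus and 0, 0 and 0.113 CPM in the neocortex, 9.45 ± 0.25 on the log2 scale (adjusted p = 1.73e-21). Nr5a1, the SF-1 gene that marks the ventromedial nucleus, had 12.8, 19.1 and 26.7 CPM in the hypothalamus and 0, 0 and 0.113 CPM in the neocortex (9.27 ± 0.27, adjusted p = 1.01e-20). Foxb1, of the mammillary body, had 7.41, 28.2 and 40.3 CPM in the hypothalamus and 0, 0 and 0.113 CPM in the neocortex (8.98 ± 0.35, adjusted p = 1.11e-17). Nkx2-1, expressed across the ventral hypothalamus, was present in every hypothalamus library (38.5, 51.5 and 63.9 CPM, against 0.797, 1.88 and 2.80 CPM in the neocortex; 4.79 ± 0.12, adjusted p = 7.47e-22). Meis2 was lower (-4.18 ± 0.21, adjusted p = 2.27e-14). The highest Meis2 level in the hypothalamus was 30.1 CPM, in the third estrus library, with a median there of 3.53 CPM and of 91.2 CPM in the neocortex.

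None of the 41 neocortical transcription factors tested was higher in the hypothalamus by more than 2-fold, and 32 were lower, with a median log2 difference of -2.21. Several of the 32, Egr1 among them, are also in the list of immediate early genes below, so the 2 counts are not independent. Tbr1, which specifies deep-layer projection neurons, had 0, 0.799 and 3.25 CPM in the hypothalamus and 146, 158 and 173 CPM in the neocortex, a log2 difference of -7.49 ± 0.13 (adjusted p = 1.09e-25). Neurod6, a bHLH factor of pyramidal neurons, had 0, 0.346 and 0.857 CPM in the hypothalamus against 62.2, 75.5 and 88.5 CPM in the neocortex (-7.56 ± 0.16, adjusted p = 5.39e-24). Emx1, the dorsal telencephalic factor, had 0, 0 and 0.343 CPM in the hypothalamus against 16.3, 18.7 and 24.7 CPM in the neocortex (-7.20 ± 0.21, adjusted p = 1.94e-20). For all 3 genes every neocortex library lay above every hypothalamus library. Mef2c, a factor of activity-dependent synapse refinement, differed by -4.56 ± 0.08, and Fezf2, of subcerebral neurons, by -4.39 ± 0.10. A few cortical factors had like levels in both regions. Rorb, a layer 4 marker that the suprachiasmatic nucleus also expresses, differed by 0.04 ± 0.08, and Cux1 by -0.05 ± 0.04, and neither passed the test of any difference (adjusted p = 0.648 and 0.334).

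The genes of fast transmission separated along the vesicular glutamate transporters. Slc17a7, encoding VGLUT1, had 0, 1.68 and 8.13 CPM in the hypothalamus and 1022, 1161 and 1286 CPM in the neocortex, a log2 difference of -9.26 ± 0.18 (edgeR glmTreat, adjusted p = 1.72e-25). Slc17a6, encoding VGLUT2, had 126, 205 and 245 CPM in the hypothalamus and 15.4, 29.5 and 41.6 CPM in the neocortex (2.79 ± 0.09, adjusted p = 1.03e-17). The third transporter, Slc17a8, did not pass the test of any difference (0.13 ± 0.17, adjusted p = 0.497). The GABA genes differed by less. Gad2 had 188, 263 and 354 CPM in the hypothalamus and 123, 132 and 145 CPM in the neocortex, with no overlap, and at 0.99 ± 0.07 on the log2 scale it passed the test of any difference (adjusted p = 1.02e-12) but not that of over 2-fold. Gad1, the other GABA-synthesising enzyme gene, was lower by a smaller amount, at 155, 193 and 226 CPM in the hypothalamus and 225, 258 and 289 CPM in the neocortex (-0.41 ± 0.05, adjusted p = 3.89e-08 for any difference). Slc6a11, the GABA transporter GAT-3 of astrocytes, had 581, 706 and 781 CPM in the hypothalamus and 129, 134 and 142 CPM in the neocortex (2.36 ± 0.05, adjusted p = 3.08e-21). Of the 19 genes tested for glutamate and GABA transmission, 7 were higher and 2 lower by more than 2-fold, beside 8.84% and 6.61% of all genes tested.

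Of 12 tested genes for making and packaging monoamines and acetylcholine, 7 were higher in the hypothalamus by more than 2-fold and none was lower (median log2 difference 1.77). Hdc, the histidine decarboxylase of the tuberomammillary histamine neurons, had 22.2, 55.7 and 69.1 CPM in the hypothalamus and 0, 0.433 and 0.868 CPM in the neocortex, 6.78 ± 0.22 on the log2 scale (adjusted p = 2.73e-19). Th, the rate-limiting enzyme of catecholamine synthesis, had 7.35, 13.7 and 17.4 CPM in the hypothalamus and 0, 0.486 and 0.920 CPM in the neocortex (4.77 ± 0.19, adjusted p = 1.49e-16). Ddc, the next enzyme in that pathway, and Slc18a2, the vesicular monoamine transporter, differed by 3.64 ± 0.11 and 3.03 ± 0.10.

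Receptors for peptides and peptide hormones were higher more often than lower. Of 57 listed, 45 were tested, 22 were higher by more than 2-fold and 9 lower, and the median log2 difference was 1.29. Of the 45, 3 had no count in the neocortex and passed the filter on low counts through the hypothalamus alone. Calcr, the calcitonin receptor that forms the amylin receptor, had 13.01, 19.98 and 27.3 CPM in the hypothalamus and no counts in the neocortex, which makes it at least 642-fold higher. Cckar and Nmur2, the receptors for cholecystokinin and neuromedin, were likewise without counts in the neocortex, at least 171- and 123-fold higher. Mc3r, a melanocortin receptor, had 5.69, 7.73 and 10.99 CPM in the hypothalamus against 0, 0 and 0.102 CPM in the neocortex (7.99 ± 0.27, adjusted p = 4.02e-19), and Ghsr, the ghrelin receptor, had 0, 7.55 and 11.3 CPM against 0, 0 and 0.108 CPM (7.94 ± 0.39, adjusted p = 3.15e-15), so that 1 hypothalamus library at 0 overlapped the neocortex. Prlr, the prolactin receptor, had 34.2, 58.2 and 74.1 CPM in the hypothalamus and 1.06, 2.51 and 3.40 CPM in the neocortex (4.61 ± 0.13, adjusted p = 1.14e-20). Avpr1a, a vasopressin receptor, differed by 5.22 ± 0.34 (adjusted p = 5.86e-12), whereas Oxtr, the oxytocin receptor, differed by 0.89 ± 0.10 and passed only the test of any difference (adjusted p = 1.07e-08). Among the 9 lower were receptors for VIP, cholecystokinin and CRH, with Vipr1 at -5.49 ± 0.13, Cckbr at -2.94 ± 0.06 and Crhr1 at -2.33 ± 0.11. Cckbr had 8.13, 9.81 and 12.7 CPM in the hypothalamus against 64.97, 78.3 and 83.8 CPM in the neocortex, the opposite order to Cckar.

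The receptors for estrogen and progesterone gave unlike results. Esr1, estrogen receptor α, had 18.4, 26.9 and 32.8 CPM in the hypothalamus and 0.908, 1.90 and 2.96 CPM in the neocortex, a log2 difference of 3.74 ± 0.12 (edgeR glmTreat, adjusted p = 1.51e-18). Pgr, the progesterone receptor, had 13.96, 19.3 and 41.3 CPM in the hypothalamus and 16.96, 21.3 and 22.6 CPM in the neocortex, and at -0.01 ± 0.11 it did not pass the test of any difference (adjusted p = 0.915). Thrb, thyroid hormone receptor β, was lower (-1.26 ± 0.07, adjusted p = 3.81e-04). Of the 24 nuclear hormone receptor genes tested, 2 were higher and 3 lower by more than 2-fold, beside 8.84% and 6.61% of all genes tested. With so few genes, neither count is read as a trait of the list.

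Subunits of the receptor channels for GABA and glycine included both strongly higher and strongly lower genes. Of 18 tested, 6 were higher and 3 lower by more than 2-fold, and the median log2 difference was 0.14. Gabrq and Gabre, the θ and ε subunits, neighbours on the X chromosome, were almost absent from the neocortex. Gabrq had 96.8, 111 and 121 CPM in the hypothalamus and 0.143, 0.676 and 1.21 CPM in the neocortex (7.27 ± 0.11, adjusted p = 9.63e-28), and Gabre had 37.9, 45.9 and 68.8 CPM against 0, 0.122 and 0.325 CPM (8.34 ± 0.18, adjusted p = 9.48e-24). Gabrg1 (2.14 ± 0.09) and the glycine receptor genes Glra1 (5.52 ± 0.16), Glra3 (2.82 ± 0.15) and Glra2 (1.44 ± 0.09) completed the 6. Gabrd, the δ subunit of extrasynaptic receptors, had 0, 0.277 and 11.4 CPM in the hypothalamus and 47.1, 52.3 and 62.3 CPM in the neocortex (-5.63 ± 0.25, adjusted p = 7.4e-16), and its 11.4 CPM was in the third estrus library. Gabra4, another extrasynaptic subunit, had 19.4, 24.2 and 29.3 CPM in the hypothalamus and 83.8, 94.7 and 116 CPM in the neocortex (-1.95 ± 0.06, adjusted p = 8.67e-15). Among NMDA receptor genes, Grin2d (1.46 ± 0.08) and Grin3a (1.35 ± 0.04) were higher, and Grin2a (-2.09 ± 0.08) and Grin2b (-1.30 ± 0.07) were lower. The 17 ionotropic glutamate receptor genes tested gave 3 higher and 3 lower, beside 8.84% and 6.61% of all genes tested, with a median of 0.05.

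**Figure D3:**
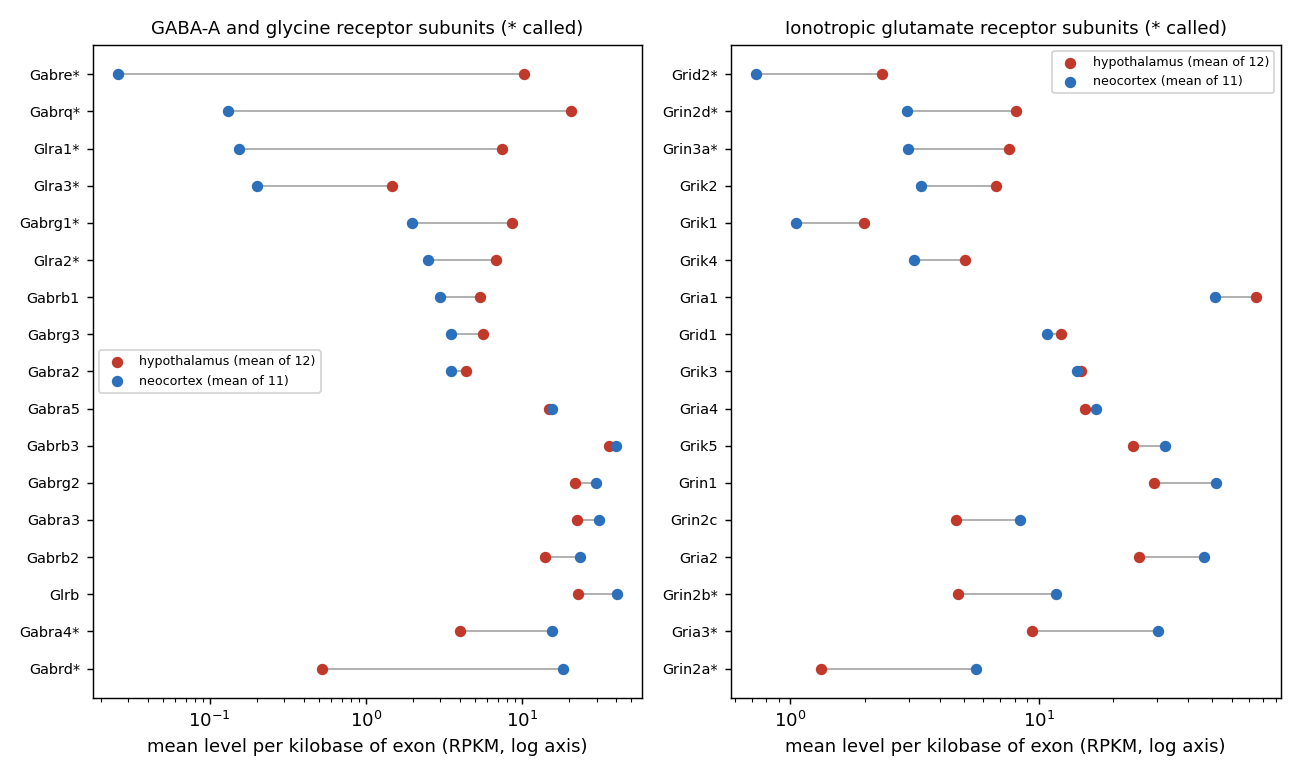
Mean level per kilobase of exon (RPKM, log axis) of 17 of the tested subunits of GABA-A and glycine receptors (left) and ionotropic glutamate receptors (right), with 1 point for the hypothalamus (mean of 12 libraries) and 1 for the neocortex (mean of 11), sorted by log2 difference; stars mark subunits called by more than 2-fold. The widest gaps are those of Gabre and Gabrq at the top and Gabrd at the bottom, and most other subunits lie within 2-fold of each other.

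Ion channels split by family. Of 53 potassium channel genes tested, 26 were lower in the hypothalamus by more than 2-fold and 5 were higher, and the median log2 difference was -0.94. Kcnh3, an ether-à-go-go channel of forebrain pyramidal cells, had 1.03, 2.56 and 13.01 CPM in the hypothalamus and 133, 156 and 171 CPM in the neocortex (-5.76 ± 0.13, adjusted p = 2.55e-23). The silent subunits Kcns1 and Kcnv1 and the inward rectifier Kcnj4 differed by -4.24 ± 0.11, -4.07 ± 0.09 and -3.83 ± 0.13. The higher potassium channel genes included Kcna5 (2.97 ± 0.10) and Kcnn3, a small-conductance calcium-activated channel (1.98 ± 0.12). Sodium, calcium and HCN channel genes were balanced, with 8 of 36 higher and 7 lower, beside 8.84% and 6.61% of all genes tested. Scn9a, known for its role in pain-sensing neurons, had 56.1, 81.1 and 106 CPM in the hypothalamus and 2.43, 4.12 and 6.13 CPM in the neocortex (4.30 ± 0.10, adjusted p = 2.47e-22). Scn7a, the sodium sensor of the circumventricular organs, differed by 3.38 ± 0.12, and Hcn4 by 2.82 ± 0.14. On the lower side Cacng3, which traffics AMPA receptors, differed by -3.002 ± 0.06.

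Genes of the spiny excitatory synapse were lower in the hypothalamus. Of 40 postsynaptic scaffold and plasticity genes tested, 26 were lower by more than 2-fold and none was higher, with a median log2 difference of -1.53. Camk2a, the kinase of long-term potentiation, had 380, 404 and 675 CPM in the hypothalamus and 2899, 3108 and 3596 CPM in the neocortex (-2.90 ± 0.07, adjusted p = 9.43e-21). Nrgn, neurogranin, which buffers calmodulin in spines, had 61.4, 78.3 and 120 CPM in the hypothalamus and 1184, 1442 and 1594 CPM in the neocortex (-4.15 ± 0.08, adjusted p = 1.11e-24). The libraries were separated about as widely for Itpka, which bundles spine actin (-4.73 ± 0.14). Dlg4, encoding the scaffold PSD-95, had 294, 329 and 434 CPM in the hypothalamus against 652, 712 and 807 CPM in the neocortex, and at -1.08 ± 0.05 it was not called by more than 2-fold (adjusted p = 0.106), though it was called in 9 of the alternative settings.

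Immediate early and activity-regulated genes were lower too, 27 of 36 by more than 2-fold with 1 higher and a median of -2.44. Arc, which regulates AMPA receptor uptake, had 10.3, 13.9 and 31.7 CPM in the hypothalamus and 215, 688 and 779 CPM in the neocortex (-5.37 ± 0.18, adjusted p = 2.27e-19). Egr1 had 20.2, 56.6 and 74.7 CPM in the hypothalamus and 345, 730 and 866 CPM in the neocortex (-3.66 ± 0.18, adjusted p = 2.63e-14). Fos had 6.32, 21.6 and 33.2 CPM in the hypothalamus and 24.1, 96.2 and 123 CPM in the neocortex (-2.13 ± 0.21, adjusted p = 6.57e-06). The regions were apart for Arc and Egr1 and overlapped for Fos. In 2 neocortex libraries, the third proestrus and the first estrus one, the summed list stood at 2945 and 3257 CPM, against 4430 to 5658 CPM in the other 9 and 1656 to 2003 CPM in the hypothalamus. The 1 higher gene was Scg2, secretogranin II of dense-core vesicles, with 702, 793 and 888 CPM in the hypothalamus and 193, 210 and 237 CPM in the neocortex (1.89 ± 0.05, adjusted p = 1.17e-17).

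Imprinted genes that the brain expresses, which are read from 1 parental copy, were mostly higher in the hypothalamus. Of 58 listed, 42 were tested, 21 were higher by more than 2-fold and 1 lower, and the median log2 difference was 1.09. By the test of any difference 36 were higher and 4 lower, beside 39.9% and 37.3% over all genes tested. Dlk1, a Notch-family ligand that restrains differentiation, had 255, 288 and 350 CPM in the hypothalamus and 0.441, 0.853 and 1.57 CPM in the neocortex (8.35 ± 0.10, adjusted p = 1.34e-29). Magel2, a gene of the Prader-Willi region, had 105, 116 and 149 CPM in the hypothalamus and 0.486, 0.930 and 1.43 CPM in the neocortex (6.92 ± 0.09, adjusted p = 8.58e-29). Peg3 was abundant in both regions, at 1897, 2030 and 2348 CPM in the hypothalamus and 463, 501 and 595 CPM in the neocortex (2.01 ± 0.05, adjusted p = 6.82e-18). None of these 3 genes overlapped between the regions in any library. Asb4 (6.70 ± 0.14), Zim1 (6.04 ± 0.10), Peg10 (4.56 ± 0.07) and Nnat (3.90 ± 0.07) were higher as well, and Ndn, the neighbour of Magel2, by 1.90 ± 0.09. Nespas, an antisense RNA whose exons overlap Gnas over 31.4% of their length, differed by 7.11 ± 0.15, and since the kit does not mark strand its reads cannot be told apart from those of the overlapping gene. Igf2, which meninges and vessels express in the adult brain, had 35.6, 186 and 321 CPM in the hypothalamus and 43.5, 54.5 and 69.3 CPM in the neocortex (1.75 ± 0.19, adjusted p = 3.51e-04), so that the regions overlapped. The gene Gm49394 shares 62.8% of the exon length of Igf2. Meg3, the long noncoding RNA of the Dlk1 cluster, differed by 1.01 ± 0.07 and passed only the test of any difference, and Herc3 was the 1 lower gene (-1.11 ± 0.04, adjusted p = 0.0147).

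**Figure D4:**
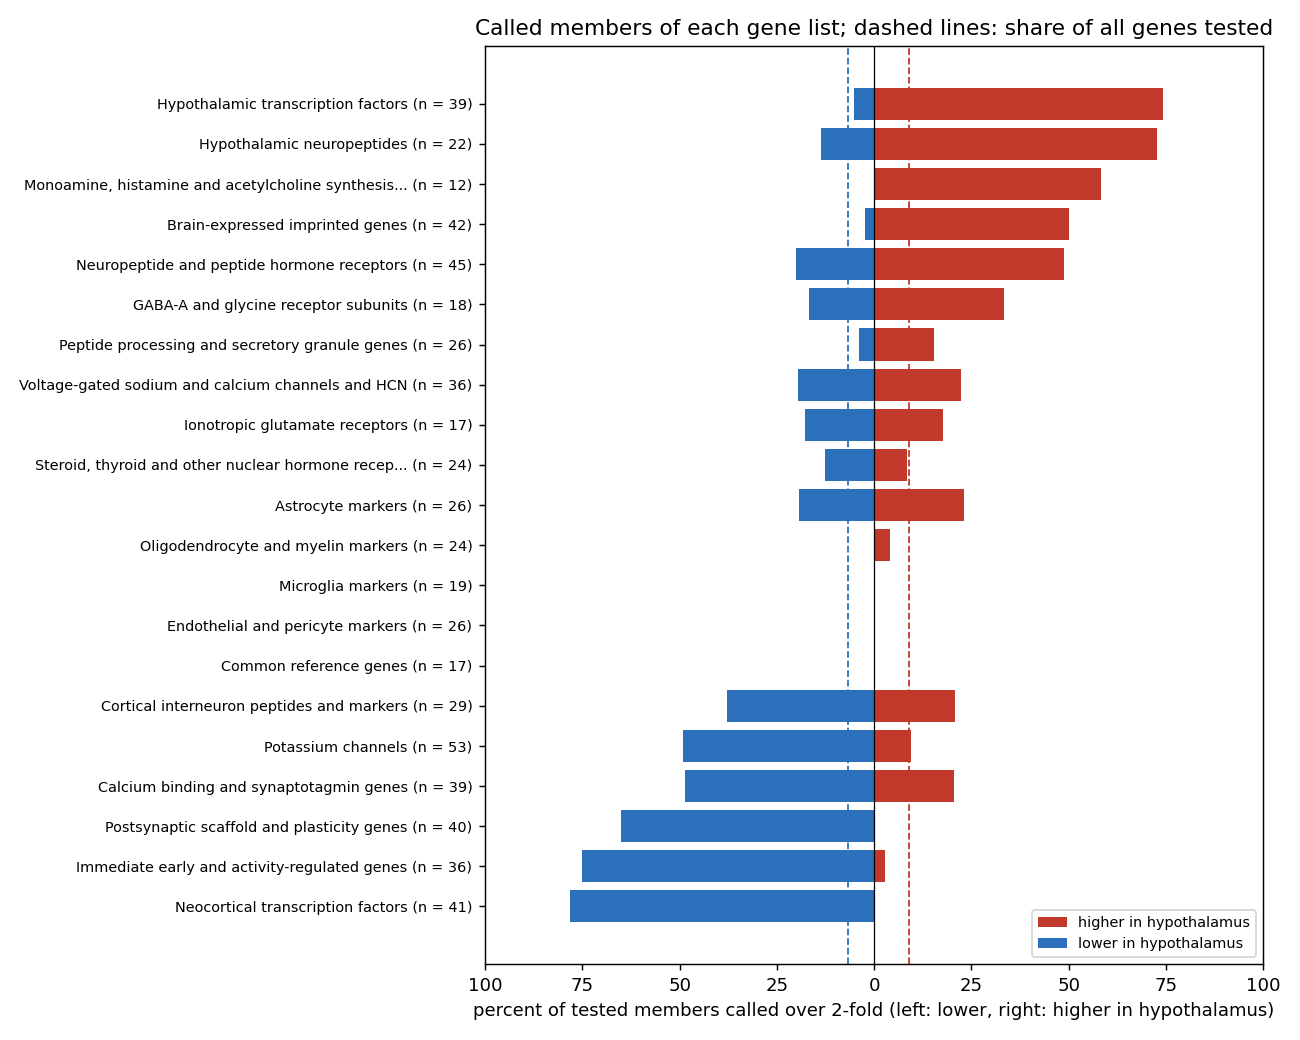
Percent of the tested members of 21 gene lists called by more than 2-fold (x axis; red to the right, higher in the hypothalamus, and blue to the left, lower), with dashed lines at the shares of all genes tested, 8.84% and 6.61%. The lists at the top, from hypothalamic transcription factors to peptide receptors, reach furthest right, and the cortical factor, activity-regulated and postsynaptic lists at the bottom reach furthest left.

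Other genes stood out by the size of the difference alone. Irs4, an insulin receptor substrate, had 150, 171 and 192 CPM in the hypothalamus and 0, 0.122 and 0.486 CPM in the neocortex (9.57 ± 0.13, adjusted p = 1.06e-28). Baiap3, which promotes dense-core vesicle fusion, had 261, 318 and 386 CPM in the hypothalamus and 0.365, 0.715 and 1.66 CPM in the neocortex (8.46 ± 0.11, adjusted p = 3.46e-29), and Arhgap36 had 55.02, 68.5 and 83.9 CPM against 0, 0 and 0.441 CPM (9.35 ± 0.18, adjusted p = 2.69e-25). For each of these 3 genes the lowest hypothalamus library lay far above the highest neocortex library. Among interneuron markers, 11 of 29 were lower by more than 2-fold and 6 higher. Cck (-4.59 ± 0.10), Lamp5 (-5.54 ± 0.11), Lhx6 (-2.99 ± 0.16) and Pvalb (-2.89 ± 0.14) were lower, and Calb2, calretinin, was higher (4.07 ± 0.07). Sst, somatostatin, was at 52.1, 72.7 and 84.3 CPM in the hypothalamus and 110, 132 and 150 CPM in the neocortex, a difference of -0.89 ± 0.06 that did not pass the 2-fold test. Lamp5 is also listed as a neocortical layer marker, and Gad1, in the interneuron list, differed by -0.41 ± 0.05. The number of interneurons was not tested.

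Few glial and vascular markers differed by more than 2-fold, apart from astrocyte genes. Of 26 astrocyte markers, 6 were higher and 5 lower by more than 2-fold, beside 8.84% and 6.61% of all genes tested. Agt, angiotensinogen, had 163, 171 and 217 CPM in the hypothalamus and 3.47, 5.36 and 8.41 CPM in the neocortex (5.07 ± 0.09, adjusted p = 7.06e-26). Slc1a2, the main astrocytic glutamate transporter, was lower, at 1546, 1848 and 2218 CPM in the hypothalamus and 3913, 4469 and 4783 CPM in the neocortex (-1.23 ± 0.06, adjusted p = 3.12e-04). Gfap was higher (1.46 ± 0.12, adjusted p = 5.54e-04) and varied widely, at 165 to 556 CPM in the hypothalamus and 85.2 to 109 CPM in the neocortex. None of 19 microglia markers passed the 2-fold test. By the test of any difference 17 were lower, beside 37.3% lower over all genes tested. Their median was -0.58, and they summed to 251 to 347 CPM in the hypothalamus and 390 to 478 CPM in the neocortex, without overlap. Oligodendrocyte markers gave 1 higher of 24 and none lower, with the summed level at 3291 to 7407 CPM in the hypothalamus and 4493 to 5647 CPM in the neocortex. None of 26 endothelial and pericyte markers was called by more than 2-fold.

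Most of the ependymal and meningeal markers called were higher in the hypothalamus. Of 23 ependymal and tanycyte markers tested, 12 were higher and 4 lower by more than 2-fold. The summed level of the 29 listed went the other way, at 334 to 585 CPM in the hypothalamus and 620 to 738 CPM in the neocortex, without overlap. The higher ones include Rax, a tanycyte factor, and the ciliary genes Foxj1 (2.19 ± 0.13, adjusted p = 6.6e-10) and Hydin (5.06 ± 0.35, adjusted p = 1.78e-11). Meningeal and fibroblast markers gave 15 of 21 higher and none lower, but for 1 gene alone did the libraries not overlap, and the count was 8 with DESeq2 and 13 to 18 with 1 library left out. Col1a1 had 2.09, 13.02 and 24.3 CPM in the hypothalamus and 1.71, 4.43 and 6.46 CPM in the neocortex (1.72 ± 0.24, adjusted p = 0.00437). Of 20 choroid plexus markers, 8 were tested, 6 were higher by more than 2-fold and 1 lower, the median log2 difference was 1.74, and the summed level of the list overlapped, at 170 to 293 CPM in the hypothalamus and 167 to 244 CPM in the neocortex. The 1 lower gene was Ttr, the defining choroid plexus gene, at 0, 0.348 and 2.14 CPM in the hypothalamus against 7.38, 11.3 and 44.1 CPM in the neocortex (-4.93 ± 0.47, adjusted p = 2e-08). The third proestrus and the second metestrus library of the neocortex were at 41.7 and 44.1 CPM and the other 9 at 7.38 to 15.2 CPM.

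The comparison was repeated within each stage of the cycle. Within single stages, 928 genes were higher in the hypothalamus by more than 2-fold in proestrus (6.1%), 859 in estrus (5.65%), 948 in metestrus (6.23%) and 951 in diestrus (6.25%), and 797, 768, 816 and 814 were lower (5.24%, 5.05%, 5.36% and 5.35%). In all 4 stages 654 genes were called higher and 634 lower, and no gene was called in opposite directions in 2 stages. All 2351 genes called with the stages together kept their sign in each stage. These genes were called on the same libraries, so a kept sign was largely fixed in advance. The stage contrasts came from 1 joint fit. With the filter on low counts, no gene passed the test of a region by stage interaction (edgeR's quasi-likelihood test, 0 of 15214 at adjusted p under 0.05, and 297 at an unadjusted p under 0.05). Limma voom also gave 0, and DESeq2 gave 1, Six3, a hypothalamic homeobox gene (adjusted p = 0.0192, against 1 with edgeR). The count was not stable, at 102 genes without a filter on low counts, 11 of them not tested with it, and 4 without the 4 hypothalamus libraries richest in Lars2. A count of 0 does not show that interactions are absent. In simulated counts the edgeR test found 18.5% of 1.5-fold and 79.1% of 4-fold changes confined to hypothalamus estrus. Esr1 differed by 3.71, 3.28, 3.79 and 4.23 on the log2 scale in proestrus, estrus, metestrus and diestrus (unadjusted p = 0.127 for the interaction), and Pgr by 0.03, 0.41, -0.30 and -0.12 (unadjusted p = 0.188).

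**Figure D5:**
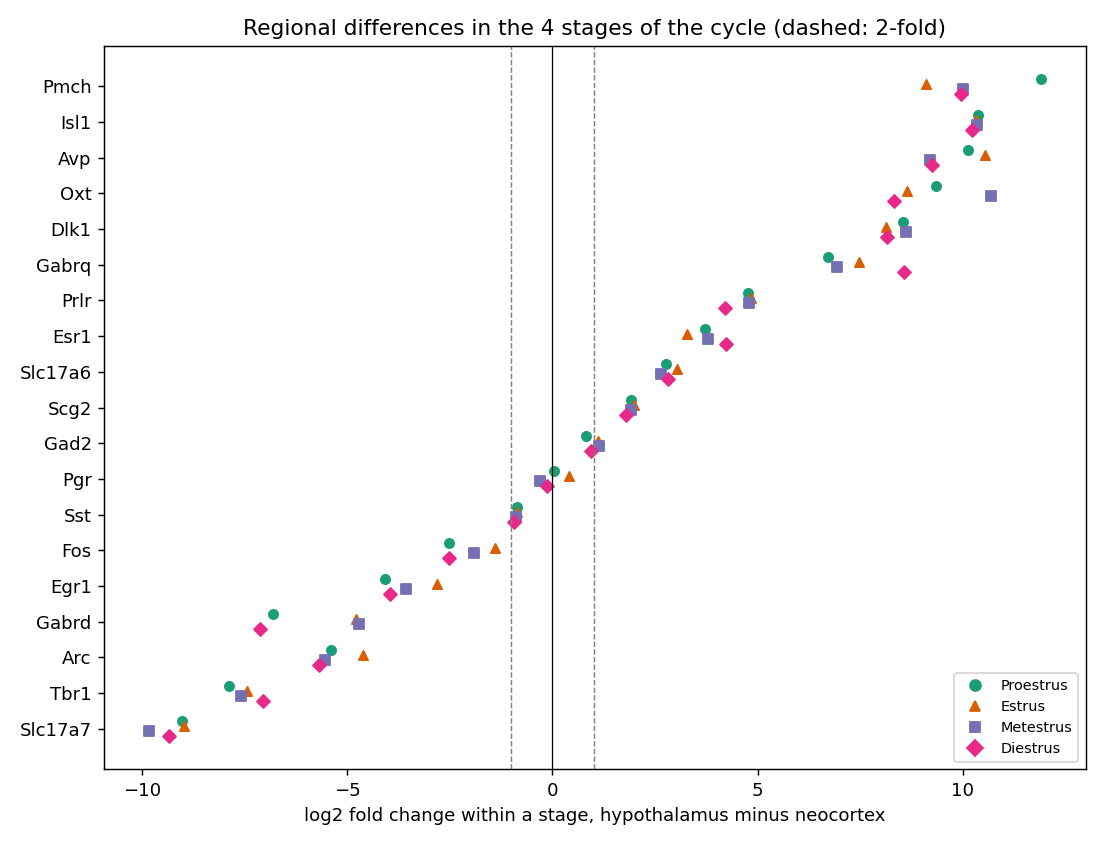
Log2 difference, hypothalamus minus neocortex (x axis), of 19 genes in each of the 4 stages, with 1 symbol per stage and dashed lines at a 2-fold difference. The 4 symbols of a gene lie on the same side of 0 for every gene shown except Pgr, and no gene shown passed the interaction test of the filtered genes in all 23 libraries.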

How the data were processed

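RNA of whole dissected regions was sequenced after mRNA isolation, and the deposited values are raw counts per gene, made by the authors, 1 table per region. The submitters' processing notes name the builds GRCm38 and mm10 and, with no role or order, the tools Cufflinks (2.1.1), DESeq (1.12.1), TopHat2 (2.0.8), Trimmomatic (0.32) and SAMtools. Which program counted the reads, and on which annotation, is not stated in the labels, and the kit marks no strand, so overlapping genes cannot be told apart.

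Gene names and types came from GENCODE M21 on GRCm38, which matched 35449 of 37315 identifiers; the 1866 others were counted but left unnamed. The filter filterByExpr by region (count minimum 10) left 15214 genes, and totals of 1826368 to 10535466 counts per library set the precision. Fits used edgeR 4.0.16 in R 4.3.3 (TMM scaling, glmQLFit, stage as covariate). Differences over 2-fold were tested with glmTreat, any difference and the interaction with glmQLFTest, each Benjamini-Hochberg adjusted over all genes at 0.05. CPM here are counts per 1000000 of the TMM-scaled total of tested genes, and RPKM are mean CPM per kilobase of exon. A bound against a region with no counts used 3 counts over that region. Shares of counts were compared with permutation tests of 100000 resamples, whose p-values measure the spread between libraries. The floors of 3 counts cover counting error only. The scripts were tested on simulated data with known changes.

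Genes were named from lists and by rules of size (largest log2 difference, largest CPM difference), and the genes and lists were chosen with earlier results of these data known. Irs4, Baiap3 and the X chromosome genes were picked after their values were seen. The groups came from GEO's labels. The labels say that regions were taken from each animal, but not which libraries of the 2 regions share an animal. They do not say that replicates are more than separate samples, so p-values measure the spread between these libraries. Same-numbered libraries of the 2 regions had the same age in days. They deviated together only weakly (correlations -0.12 to 0.106 over 11 pairs), and the own number was the best match in 5 pairs. With so few libraries per stage, these correlations cannot show whether the numbers pair animals. The main fit did not use the numbers as pairs. Alternatives were RLE scaling, no filter, a mean CPM of at least 1, DESeq2 1.42.0, limma 3.58.1 voom, a replicate block, thinning to 1826368 counts, no stage term, all 47 libraries in 1 fit, and leaving out each library or the Lars2-rich ones. Hippocampus, made with another protocol, and cerebellum entered only that 1 fit. A few members of the lists are not reported here by name, though they stay in the counts.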

Additional observations from a re-analysis of the deposited data

How the results depend on the processing

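Every count of genes called by more than 2-fold was recomputed under each alternative, and no gene called in the 23 libraries changed sign under any of them. The count of higher genes moved most without a filter on low counts, to 2552 of 25337 genes, and with counts thinned to the least deep library, to 803 of 12519 genes, where fewer genes and counts entered by construction. DESeq2 gave 1129 higher and 928 lower genes, limma voom 1177 and 931, and RLE scaling 1329 and 1020. The interaction of region and stage gave 102 genes without a filter, 1 with DESeq2, and 4 without the 4 Lars2-rich hypothalamus libraries, an alternative chosen after seeing the data (A830036E02Rik, Gabrd, Kcnab3 and Scn4b, adjusted p = 0.00127 to 0.024); the cause was not tested. With the replicate number as a block, a pairing the labels do not state, 1370 genes were higher and 1011 lower by more than 2-fold, and no interaction was called.

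Leaving out 1 library at a time gave 1202 to 1407 genes higher and 994 to 1038 lower by more than 2-fold, and 5759 to 6134 higher and 5560 to 5818 lower by any difference. Within stages the higher counts ranged over 700 to 967 in proestrus, 656 to 907 in estrus, 787 to 1003 in metestrus and 761 to 983 in diestrus, and the lower counts over 723 to 816, 663 to 819, 744 to 836 and 750 to 843. The difference in the share of Lars2 ranged over 2.99 to 4.10 percentage points and that of mitochondrial genes over -0.323 to 0.168. Lars2 itself, at a fitted log2 difference of 1.72 ± 0.37, passed the 2-fold test at adjusted p = 0.05 and missed it in 20 of 34 alternatives. Depth limits genes of few counts: with the thinned counts 17 of 24 tested hypothalamic transcription factors were called higher, against 29 of 39 with all counts.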

Other observations

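Genes of the X chromosome were called higher in the hypothalamus more often than other genes, a count made after the values had been seen. Of 468 protein-coding X genes tested, 82 were higher by more than 2-fold (17.5%) and 16 lower (3.42%), with a median log2 difference of 0.25. Of 12893 protein-coding genes on other chromosomes, 1022 were higher (7.93%) and 907 lower (7.03%). Among the X genes were Irs4, Arhgap36, Gabre and Gabrq, described above, and Gpr101, an orphan receptor, with 82.2, 93.3 and 113 CPM over the hypothalamus libraries and 0, 0.317 and 0.965 CPM over the neocortex libraries (7.88 ± 0.13 on the log2 scale, edgeR glmTreat, adjusted p = 4.13e-26). All hypothalamus libraries lay above all neocortex libraries for 137 of the 468 X genes and below for 60, beside 16.2% above and 18.1% below over all genes tested. Long intergenic noncoding RNAs gave 35 higher (28.5%) and 9 lower of 123 tested, beside 8.84% higher and 6.61% lower over all genes.

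Genes of thyroid hormone handling were lower in the hypothalamus in 8 of 16 tested and higher in 2, with a median log2 difference of -1.13. Dio2, the deiodinase that makes the active hormone in astrocytes and tanycytes, had 8.93, 12.7 and 23.6 CPM in the hypothalamus and 71.8, 105 and 114 CPM in the neocortex (-2.96 ± 0.11, adjusted p = 2.12e-16), with no overlap. Trhr, the receptor for thyrotropin-releasing hormone, was higher, at 5.69, 8.08 and 11.998 CPM in the hypothalamus and 0.858, 1.47 and 2.86 CPM in the neocortex (2.34 ± 0.14, adjusted p = 6.87e-10). Of 17 common reference genes none was called by more than 2-fold, and their median log2 difference was -0.14. All but Sdha, Rpl13a and Eif4a2 passed the test of any difference, which 77.2% of all genes tested also passed. Their log2 differences ran from -0.80 (Ywhaz) to 0.63 (Polr2a).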
